A study of Rattus norvegicus with 21 samples.

Results

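The genes described are 6 transcripts of glucose transport and handling in the kidney, taken from the 26404 Ensembl genes counted in renal cortex. They are Slc2a1, Slc2a2, Slc5a1, Fbp1, Akr1b1 and Txnip, chosen by identifier for their known roles. The choice was made with earlier results of these data known. All 6 were found on the chromosome given for them. The files list identifiers only. Symbols came with the choice of genes, and for each gene the chromosome in RefSeq (GRCr8) was the same, with a gene span in the files of 91.9% to 103% of the RefSeq length. Strands were the same in both for Slc2a1, Slc2a2 and Slc5a1 and opposite for Fbp1, which is on the reverse strand in rn5 and on the forward strand in GRCr8. Fbp1 also had the span that differed most from RefSeq, and the cause of the opposite strand was not tested.

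Glucose filtered by the glomerulus is taken up across the luminal membrane of the proximal tubule by sodium-coupled transporters, among them the product of Slc5a1, and leaves the cell towards the blood by facilitative transporters encoded by Slc2a2 and Slc2a1. The proximal tubule also makes glucose, a route in which the enzyme encoded by Fbp1 takes part. Akr1b1 encodes aldose reductase, which turns glucose into sorbitol, and Txnip encodes a thioredoxin-binding protein whose transcript is known to respond to glucose and which restrains glucose uptake.

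RNA came from the renal cortex of male rats aged 37 weeks in 3 groups. Sprague Dawley (SD) rats were healthy controls (n=6). Zucker Diabetic Sprague Dawley (ZDSD) rats, which become obese and diabetic, had a sham operation without further treatment (SHAM) or a sham operation followed by dietary restriction with fenofibrate, rosuvastatin, liraglutide, ramipril and metformin (DMT, n=6, labelled Medical bypass). Of 9 SHAM libraries, 7 were used, since rats 343 and 348 had 121511 and 101534 counts, under the minimum of 1000000 set for SHAM libraries.

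SHAM and DMT rats thus shared strain and surgery, while SD rats differed from both in strain, diabetes and surgery together, which cannot be told apart. DMT joined food restriction to 5 drugs, and their shares in a result cannot be told apart either. The labels mark SD and SHAM libraries, but not DMT libraries, as new analyses of earlier samples, so a batch that differs in the same way cannot be told apart from DMT. Total counts ranged from 20896370 to 27597901 in SD rats, from 14502127 to 23995113 in SHAM rats and from 22308943 to 26812590 in DMT rats.

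Promoter sequences are shown for Slc2a2, Slc2a1 and Fbp1, which were called against SD rats in a comparison below and have an entry in the table of RefSeq promoters. Txnip, also called, and Akr1b1 have no entry in that table. Each is 300 bases of GRCr8, from 250 bases before the annotated start to 50 after it, written 5′ to 3′ on the strand of the gene in GRCr8. Capitals mark motifs of core promoters, searched on both strands and not overlapping each other in these windows. The GC box was searched as GGGCGG, which is a known binding motif of Sp1-type factors. The TATA box was searched as TATAAA, the motif at which the general transcription machinery is known to assemble. The CCAAT box was searched by the letters of its name. The windows lie at chr2:113540120-113540419 (+ strand) for Slc2a2, chr5:138002272-138002571 (+ strand) for Slc2a1 and chr17:2213457-2213756 (+ strand) for Fbp1.
Slc2a2: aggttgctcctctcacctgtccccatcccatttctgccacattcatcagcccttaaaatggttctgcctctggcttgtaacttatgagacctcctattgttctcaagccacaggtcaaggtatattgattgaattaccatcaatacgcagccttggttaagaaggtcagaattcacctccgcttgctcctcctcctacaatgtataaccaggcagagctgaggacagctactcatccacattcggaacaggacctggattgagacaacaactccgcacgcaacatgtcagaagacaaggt
Slc2a1: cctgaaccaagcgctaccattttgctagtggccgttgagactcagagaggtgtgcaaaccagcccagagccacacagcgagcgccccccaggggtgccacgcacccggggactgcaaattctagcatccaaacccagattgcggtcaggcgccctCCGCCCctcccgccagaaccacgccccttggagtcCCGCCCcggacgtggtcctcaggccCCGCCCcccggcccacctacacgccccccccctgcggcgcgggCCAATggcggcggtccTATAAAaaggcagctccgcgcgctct
Fbp1: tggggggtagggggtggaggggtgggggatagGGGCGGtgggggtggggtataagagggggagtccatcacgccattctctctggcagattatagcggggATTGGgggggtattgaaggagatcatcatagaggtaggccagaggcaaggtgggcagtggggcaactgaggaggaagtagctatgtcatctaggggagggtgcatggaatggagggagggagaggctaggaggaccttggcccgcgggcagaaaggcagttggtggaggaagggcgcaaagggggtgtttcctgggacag

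The window of Slc2a2 held none of these motifs and was 47.7% G and C, compared with a median of 51.7% over 33469 promoters. The window of Slc2a1 was 68.3% G and C. It held 3 GC boxes on the reverse strand, and a CCAAT box and a TATA box on the forward strand after the annotated start. The window of Fbp1 held a GC box on the forward strand and a CCAAT box on the reverse strand. Among all promoters in the table, 33.1% held a GC box, 14.2% a TATA box and 37.5% a CCAAT box. An E-box (CACGTG), also searched, was in 6.42% of all promoters. It matched in none of the 3 windows shown and did occur in the window of Slc5a1. Matches and their absence describe these letters only.

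Levels are given as TMM-normalized CPM, which are counts scaled to a library of 1000000 after correction for library composition. Differences are log2 fold-changes from edgeR's quasi-likelihood test over all 14664 genes that passed the filter on low counts, with Benjamini-Hochberg adjusted p-values over these genes. All 6 genes passed that filter. Genes were called at an adjusted p-value under 0.05 with an absolute fold-change of at least 1.3. In tissue RNA, fewer cells of a type and less RNA per cell cannot be told apart, and markers of tubule segments and other cell types were not analysed here, as no source used here pairs their symbols with the identifiers.

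Per length of exon, Fbp1 had the highest level of the 6 genes, at 736 CPM per kb over the 19 rats, higher than 99.6% of the genes tested. Txnip followed at 251 CPM per kb, above 97.7% of genes. Both were far above the transporters. Slc2a2 had 59.3, Slc5a1 26.1 and Slc2a1 20.9 CPM per kb, and Akr1b1 was lowest at 15.2 CPM per kb, still above 57.4% of genes. Fbp1 exceeded Txnip in 6 of 7 SHAM rats and in every SD and DMT rat. By group means the order of the transporters was Slc2a2, Slc5a1 and Slc2a1 in all 3 groups, while single rats kept it to different extents. Slc2a2 exceeded Slc5a1 in 4 of 6 SD rats, but in all 7 SHAM and all 6 DMT rats. Slc5a1 exceeded Slc2a1 in all SD and DMT rats and in only 3 of 7 SHAM rats, so this pair did not differ beyond its spread in SHAM. Slc2a1 exceeded Akr1b1 in every SD rat, and in 5 of 7 SHAM and 5 of 6 DMT rats.

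**Figure D1:**
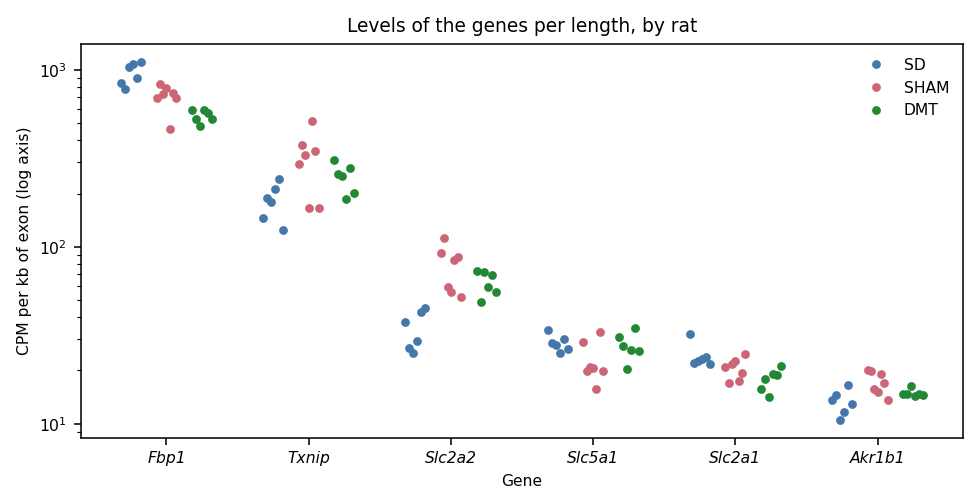
Level of each gene in each rat as CPM per kb of exon (log axis), with SD, SHAM and DMT rats side by side from left to right. Fbp1 and Txnip lie above the transporters and Akr1b1, and the distance between Slc2a2 and Slc5a1 is wider in SHAM and DMT rats than in SD rats.

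The comparison of SHAM with SD rats asks how these genes differ in untreated diabetic cortex. Slc2a2 and Txnip were higher in SHAM rats and Fbp1 was lower, by 2.24-fold, 1.72-fold and 1.36-fold. In this comparison 3 of the 6 genes were called, 2 higher and 1 lower, while 18.3% of all genes tested were called, 10.3% higher and 7.95% lower. The median absolute log2 fold-change was 0.41 over the 6 genes and 0.18 over all genes. Since the 6 genes were chosen with earlier results of these data known, these figures describe them and do not test them as a set.

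Slc2a2 (ENSRNOG00000011875, rn5 chromosome 2, 134112905 to 134144457, forward strand), the low-affinity glucose exit transporter, ranged from 64.7 to 116 CPM in SD rats (median 86.2) and from 133 to 287 CPM in SHAM rats (median 217). Every SHAM rat was above every SD rat, as held in either direction for 8.61% of all genes. Means were 199 ± 57.2 CPM (standard deviation, n=7) in SHAM and 88.7 ± 21.9 CPM (standard deviation, n=6) in SD rats. The log2 fold-change was 1.17 (SE 0.18, 95% confidence interval 0.78 to 1.55, adjusted p=0.000129, edgeR quasi-likelihood test), higher than that of 98.2% of genes. A two-sided exact permutation test over 1716 splits of the rats gave p=0.000583, the smallest these numbers allow. In the libraries left out, rats 343 and 348, Slc2a2 had 24 and 27 counts, or 198 and 266 CPM of the library total, which lies within the span of the other SHAM rats on that scale. Txnip did so too, at 601 and 955 CPM. The other 4 genes left that span in 1 or both libraries. In rat 348, Fbp1 had 1251 CPM from 127 counts (other SHAM rats at most 1123). Slc5a1 had 138 CPM from 14 counts (at most 87.3) and Slc2a1 had 39.4 CPM from 4 counts (at least 44.8) in that rat. Akr1b1 had 16.5 and 9.85 CPM (at least 18.3), from 2 counts and 1 count. Whether such low counts differ from the other SHAM rats was not tested.

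Txnip (ENSRNOG00000021201, rn5 chromosome 2, 218170012 to 218173900, forward strand) ranged from 351 to 686 CPM in SD rats (median 521) and from 467 to 1450 CPM in SHAM rats (median 931). Rats 321 and 340 had 467 and 471 CPM, within the SD values, and the other 5 SHAM rats were above all SD rats. The log2 fold-change was 0.78 (SE 0.23, adjusted p=0.0126, edgeR quasi-likelihood test). The highest SHAM value was 3.10 times the lowest, the widest span of the 6 genes in any group. When the fold-change of 1.3 was itself tested in the model (glmTreat), the call was lost (adjusted p=0.158).

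Fbp1 (ENSRNOG00000017597, rn5 chromosome 17, 391470 to 412426, reverse strand), an enzyme specific to glucose production, had 1029 to 1466 CPM in SD rats (median 1284) and 612 to 1096 CPM in SHAM rats (median 963). Of the 7 SHAM rats, 5 were below all SD rats. The log2 fold-change was -0.44 (SE 0.11, adjusted p=0.00531, edgeR quasi-likelihood test). SHAM rat 333 had the lowest value. Leaving this rat out gave a log2 fold-change of -0.37 (adjusted p=0.00392), short of the fold-change threshold. On library totals without TMM the value was -0.31, also short of it.

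Akr1b1 (ENSRNOG00000009513, rn5 chromosome 4, 61426190 to 61440279, reverse strand) had 14.1 to 22.2 CPM in SD rats (median 17.8) and 18.2 to 27.1 CPM in SHAM rats (median 22.7). Its log2 fold-change was 0.37 (SE 0.10, 95% confidence interval 0.16 to 0.59) and its adjusted p-value 0.00803, but its fold-change of 1.296 lay just under 1.3, so it was not called. With library totals as the scale the log2 fold-change was 0.50 and the gene was called. It was also called when any one of SD rats 352, 353 and 356 or SHAM rats 317, 321, 334 and 340 was left out, with values from 0.38 to 0.45. Counts leave out fragments that map to several places, and any share lost to similar genes of its family was not tested.

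The other transporters were not called. Slc5a1 (ENSRNOG00000017775, rn5 chromosome 14, 83595065 to 83660489, reverse strand), a luminal transporter of late proximal segments, had 66.1 to 88.6 CPM in SD rats (median 74.1) and 41.2 to 86.8 CPM in SHAM rats (median 54.6). Its log2 fold-change was -0.33 (95% confidence interval -0.64 to -0.03, adjusted p=0.0792, edgeR quasi-likelihood test). Of the 7 SHAM rats, 5 lay below all SD rats, and rats 311 and 334, at 75.9 and 86.8 CPM, did not. Without rat 334 the log2 fold-change was -0.45 (adjusted p=0.0130) and without rat 311 it was -0.40 (adjusted p=0.0418), both past the thresholds. On library totals it was -0.21 (adjusted p=0.226).

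Slc2a1 (ENSRNOG00000007284, rn5 chromosome 5, 141964114 to 141992634, forward strand), the widely expressed glucose transporter, had 55.8 to 82.8 CPM in SD rats (median 58.9) and 43.7 to 64.0 CPM in SHAM rats (median 54.0). Groups overlapped, and 5 of 7 SHAM rats were below all SD rats, or 3 of 7 on library totals. The log2 fold-change was -0.24 (95% confidence interval -0.46 to -0.01, adjusted p=0.0930, edgeR quasi-likelihood test). Without SD rat 352, the highest of its group, it was -0.14 (adjusted p=0.289), and on library totals -0.11 (adjusted p=0.398).

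**Figure D2:**
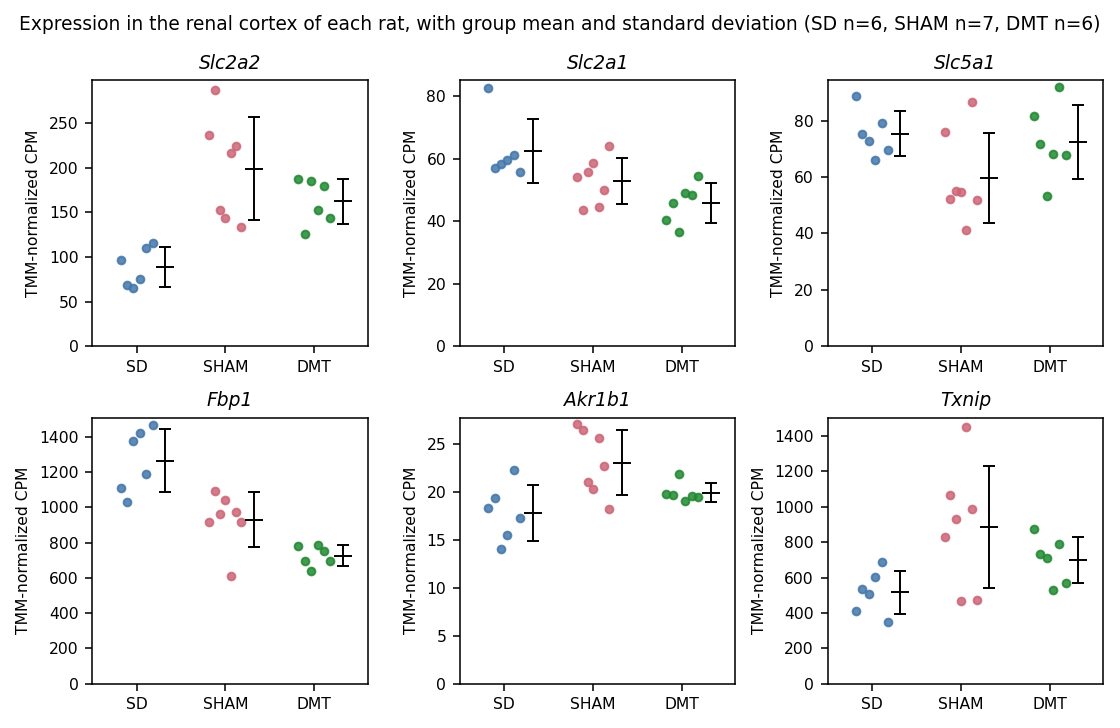
TMM-normalized CPM of each gene in each rat of the SD, SHAM and DMT groups, with the group mean and standard deviation beside the points and every axis starting at 0. Slc2a2 of all SHAM and DMT rats lies above the SD rats, and Fbp1 and Slc2a1 of all DMT rats lie below the SD rats, for Slc2a1 on this scale but not on library totals.

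The comparison of DMT with SHAM rats asks what the intervention changed in ZDSD cortex. None of the 6 genes was called by edgeR with TMM over the 19 rats, while 11.5% of all genes tested were called. At an unadjusted p-value under 0.05, 2 of the 6 genes differed, Fbp1 and Akr1b1, both lower in DMT rats, and 33.8% of all genes passed this limit in either direction. DESeq2 likewise called 0 of the 6. The median absolute log2 fold-change was 0.29 over the 6 genes and 0.14 over all genes.

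Fbp1 came nearest to a call. It had 636 to 786 CPM in DMT rats (median 724), compared with 612 to 1096 CPM in SHAM rats. All DMT rats lay below 6 of the 7 SHAM rats, and SHAM rat 333 lay below all DMT rats. On library totals that rat, at 689 CPM, lay above DMT rat 328 (655 CPM). The log2 fold-change was -0.36 (SE 0.11, 95% confidence interval -0.60 to -0.12) with an adjusted p-value of 0.0297, and the fold-change of 1.28 was under the threshold. Without SHAM rat 333 the log2 fold-change was -0.43 (adjusted p=0.00162) and Fbp1 was called. It was called as well without DMT rat 316 or DMT rat 329 (-0.38 in both cases). It was also called with the shallow SHAM libraries included, at -0.40 (adjusted p=0.0128). On library totals Fbp1 was called by edgeR (-0.41, adjusted p=0.00500) and by the exact permutation test (-0.40, adjusted p=0.0236).

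Slc2a2 had 126 to 188 CPM in DMT rats (median 166), inside the span of SHAM rats except for its lowest value. Its log2 fold-change in DMT vs SHAM was -0.29 (95% confidence interval -0.67 to 0.08, adjusted p=0.262). Without SHAM rat 315, the highest of its group, it was -0.18 (adjusted p=0.495). The interval over all 13 rats holds no change as well as a decrease of over the fold-change threshold, so these numbers of rats do not decide between them. Txnip had 528 to 872 CPM in DMT rats (median 723), with a log2 fold-change of -0.34 (95% confidence interval -0.81 to 0.13, adjusted p=0.310). All DMT rats lay within the span of the SHAM rats for this gene. Without SHAM rat 333, the highest of its group, the estimate for Txnip was -0.17 (adjusted p=0.613).

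Slc2a1 had 36.4 to 54.4 CPM in DMT rats (median 47.1), with a log2 fold-change relative to SHAM of -0.21 (95% confidence interval -0.44 to 0.02, adjusted p=0.180). Akr1b1 had 19.1 to 21.8 CPM in DMT rats (median 19.7) and a log2 fold-change of -0.21 (95% confidence interval -0.42 to -0.00146, adjusted p=0.145). Its coefficient of variation was 4.85% in DMT rats, compared with 14.8% in SHAM and 16.3% in SD rats. Slc5a1 was the single gene of the 6 with a higher estimate in DMT than in SHAM rats. It had 53.4 to 91.8 CPM in DMT rats (median 70.1), and its log2 fold-change was 0.28 (95% confidence interval -0.02 to 0.58, adjusted p=0.183). Without SHAM rat 334 this value was 0.39 (adjusted p=0.0378), past the thresholds.

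**Figure D3:**
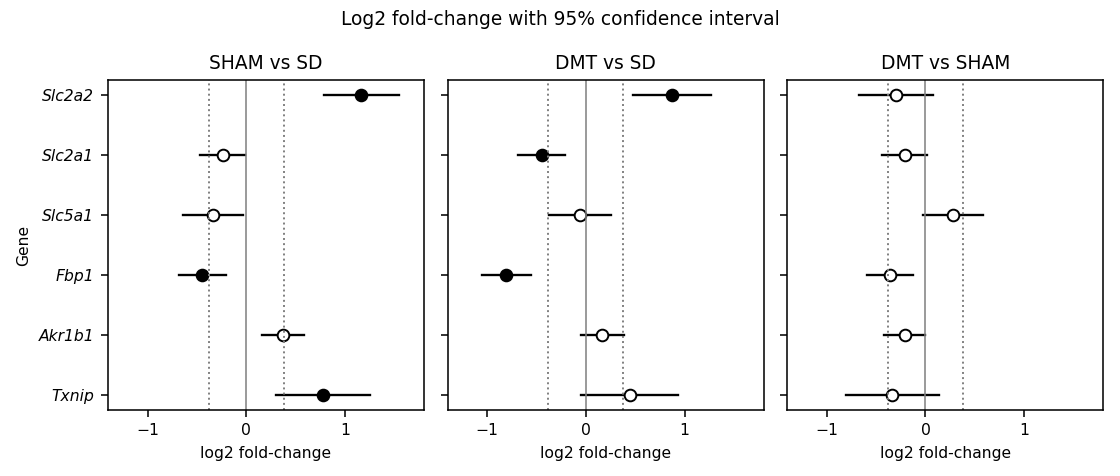
Log2 fold-change (points) with 95% confidence interval (bars) of each gene in SHAM vs SD, DMT vs SD and DMT vs SHAM. Filled points mark genes called at an adjusted p-value under 0.05 and a fold-change of at least 1.3 (dotted lines). Calls are Slc2a2, Fbp1 and Txnip in SHAM vs SD and Slc2a2, Slc2a1 and Fbp1 in DMT vs SD, with none in DMT vs SHAM.

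The comparison of DMT with SD rats asks which differences from healthy cortex were present in treated rats. Slc2a2 was 1.83-fold higher in DMT rats, Fbp1 1.75-fold lower and Slc2a1 1.37-fold lower. Of the 6 genes 3 were called, 1 higher and 2 lower, while 18.2% of all genes tested were called, 8.01% higher and 10.2% lower. Here too the 6 genes were chosen with earlier results known, so these shares do not test them as a set. This comparison shares DMT rats with the one above and SD rats with the first, so the 3 sets of values are not independent of each other.

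For Slc2a2 every DMT rat was above every SD rat, with no overlap, as for 16.9% of all genes in either direction. The mean was 162 ± 25.4 CPM (standard deviation, n=6) in DMT rats, and the log2 fold-change was 0.87 (SE 0.19, 95% confidence interval 0.48 to 1.26, adjusted p=0.00155, edgeR quasi-likelihood test). This was higher than the change of 96.9% of genes. The exact permutation p-value was 0.00216, the smallest for 6 against 6 rats.

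For Fbp1 the highest DMT rat, at 786 CPM, was below the lowest SD rat, at 1029 CPM. The mean was 725 ± 59.4 CPM (standard deviation, n=6) in DMT rats and 1266 ± 180 CPM (standard deviation, n=6) in SD rats. The log2 fold-change was -0.80 (SE 0.12, adjusted p=4.35e-05, edgeR quasi-likelihood test), and 94.8% of genes had a higher value. The mean of Fbp1 was thus highest in SD and lowest in DMT rats, but single SHAM rats overlapped both groups. SHAM rats 315 and 321 (1096 and 1040 CPM) lay above SD rat 353 (1029 CPM), rat 333 was the lowest of all 19 rats on the TMM scale, and the difference between SHAM and DMT rats was not called.

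On the TMM scale Slc2a1 was also lower in every DMT rat than in every SD rat, though the highest DMT rat (54.4 CPM) was close to the lowest SD rat (55.8 CPM). Its log2 fold-change was -0.45 (SE 0.11, adjusted p=0.00492, edgeR quasi-likelihood test). SD rat 352 had 82.8 CPM, far from the other SD rats. Leaving it out moved the estimate to -0.35 (adjusted p=0.0159), short of the fold-change threshold. On library totals it was -0.38, also just short, and the groups overlapped, with DMT rat 347 (54.2 CPM) above SD rats 354, 355 and 357 (54.0, 53.8 and 52.1 CPM; exact permutation p=0.00866 on that scale).

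Txnip had a log2 fold-change of 0.44 in DMT vs SD (95% confidence interval -0.04 to 0.93, adjusted p=0.155) and was not called, but it was called when only these 2 groups were in the fit (log2 fold-change 0.45, adjusted p=0.0391). The exact permutation test on library totals called Txnip too (0.53, adjusted p=0.0350). Akr1b1 had a log2 fold-change of 0.16 (95% confidence interval -0.05 to 0.38, adjusted p=0.242), and of 0.10 (adjusted p=0.483) without SD rat 354. For Slc5a1 the value was -0.05 (95% confidence interval -0.37 to 0.26, adjusted p=0.807), and it turned to 0.02 on library totals and without DMT rat 328, with a range of -0.13 to 0.02 over the fits that left out 1 rat, so no direction can be given. The difference between the calls of Txnip in SHAM and DMT rats is not itself a called difference, since Txnip was not called in DMT vs SHAM.

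Rats of one group differed in these genes. The coefficient of variation was highest in SHAM rats for Slc2a2 (28.8%), Slc5a1 (26.6%), Fbp1 (16.6%) and Txnip (38.9%), and highest in SD rats for Slc2a1 and Akr1b1 (16.3% each). Rats 317, 321 and 340 had the lowest Slc2a2 of the SHAM group (152, 143 and 133 CPM), and rats 311, 315, 333 and 334 had 217 to 287 CPM. The former 3 rats also had the lowest Akr1b1 (18.2 to 21.02 CPM, with 22.7 to 27.1 CPM in the other 4). The correlation of Slc2a2 and Akr1b1 across the 7 SHAM rats was r=0.92 (exact permutation p=0.00972) and Spearman's rho 0.93 (exact permutation p=0.00675). Over the 45 relations computed (15 pairs of genes in 3 groups), the adjusted values were 0.223 and 0.250, so this relation does not pass the correction. Without rats 321 and 340, farthest from the median of Slc2a2, r was 0.81. In SD and DMT rats r was 0.57 and 0.46 (n=6 each, exact permutation p=0.242 and 0.357).

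In SHAM rats Slc2a1 ran against Txnip (r=-0.88, rho=-0.89, exact permutation p=0.0113 and 0.0123, adjusted 0.223 and 0.250) and against Slc2a2 (r=-0.87, rho=-0.86, exact permutation p=0.0149 and 0.0238, adjusted 0.223 and 0.268). Without rats 315 and 333 these r were -0.86 and -0.85. In SD rats r was -0.20 with Txnip (rho=0.37) and 0.22 with Slc2a2 (n=6, exact permutation p=0.701 and 0.843 for r). Without SD rats 352 and 357 these r were 0.89 and 0.87, over so few rats that no direction can be given for SD. In DMT rats r was -0.57 and -0.59. Slc2a1 and Akr1b1 had r=-0.81 in SHAM and in DMT rats (exact permutation p=0.0315 and 0.0236, adjusted 0.284 and 0.266). That r was 0.18 in SD rats, and -0.21 in DMT rats without rats 328 and 316. Slc2a2 and Txnip had r=0.73 and rho=0.61 in SHAM rats (exact permutation p=0.0724 and 0.167, adjusted 0.362 and 0.725), and r fell to 0.13 without rats 321 and 340, so that this relation rests on those rats. None of the 45 relations passed the correction. These measures come from the same libraries and share their scaling.

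Levels also moved with the total count of the library in places. As a description, r with the log2 total was 0.81 for Slc5a1 in SHAM rats (n=7) and 0.67 in DMT rats (n=6), and -0.77 for Slc2a2 and -0.63 for Akr1b1 in SD rats (n=6). Of the other 14 pairs of gene and group, the value farthest from 0 was 0.57, for Txnip in DMT rats. The part of depth in the differences above was not tested.

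**Figure D4:**
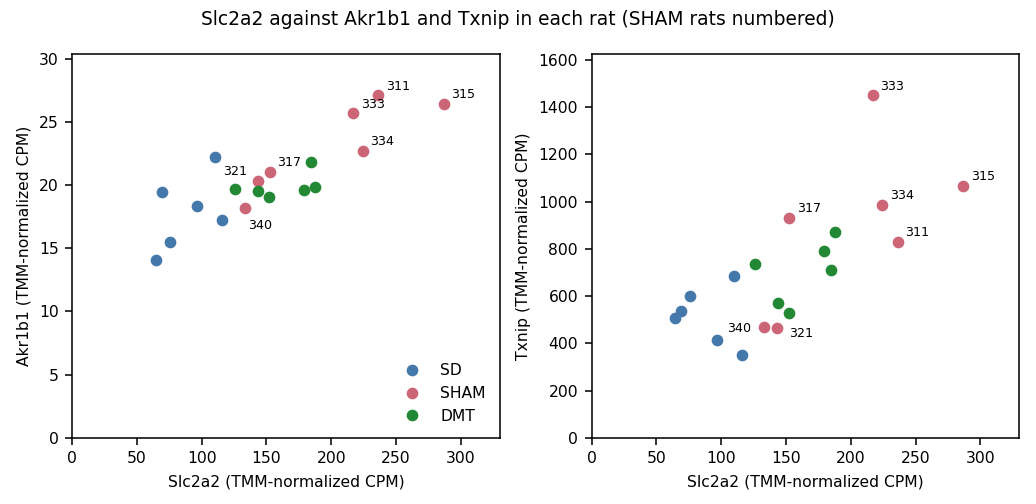
Akr1b1 (left) and Txnip (right) against Slc2a2 in each rat, all as TMM-normalized CPM, with SHAM rats numbered. SHAM rats 321 and 340 lie at the low end of the SHAM group for Slc2a2 and Txnip, with Txnip below every DMT rat, and rat 333 has the highest Txnip.

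Across the 19 rats, with group means subtracted, the gene most like each of the 6 was sought among 13514 genes of at least 1 CPM. The closest match was ENSRNOG00000014976 for Fbp1 (Pearson's r=0.95 of log2 values, 19 rats). The next was ENSRNOG00000000216 for Txnip (r=0.93, 19 rats). For the other 4 genes the highest r lay between 0.81 and 0.89. Each is the largest of many values from the same libraries and is given as a description.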

How the data were processed

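Renal cortical RNA was sequenced by the authors as stranded total RNA libraries, and 21 libraries are labelled with separate rat numbers. The study reports 7 SHAM rats, while 9 libraries carry that label. According to the methods of the study and the file headers, reads were trimmed with Trim Galore, mapped to rn5 with STAR, and fragments counted on exons of 26404 Ensembl genes with featureCounts (1.6.4) on the reverse strand. Fragments that fell on several positions or genes were not counted. The deposited values are these raw counts, 1 set per library, not normalized. Names of tools follow the submitters' processing notes.

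From the counts, SHAM libraries under 1000000 counts were left out (2 of 9). A chi-square test found no difference between their counts beyond sampling noise (ratio to its 5208 degrees of freedom 1.02, p=0.195), and whether they are separate libraries was not tested further. In R 4.3.3 with edgeR 4.0.16, filterByExpr (minimum count 10, minimum total 15) kept 14664 genes, and TMM gave factors of 0.904 to 1.13. A quasi-likelihood model of 19 rats tested 3 comparisons, with standard errors and 95% intervals derived from the F statistic. The common biological coefficient of variation was 0.158. In the libraries used, 3 counts equal 0.109 to 0.207 CPM. The 95% intervals come from the same fit as the edgeR p-values and include the spread between rats. Labels do not state whether rats within a group are independent beyond their numbers, so p-values measure the spread between these rats.

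Alternatives were DESeq2 (1.42.0), other scalings, filters, thresholds and sets of libraries, leaving out each rat, and exact permutation tests of log2(CPM + 1) over library totals, adjusted over 18 tests. All 6 genes are named whatever their values, and for each the gene most like it across rats was sought. Further lists of pathway genes and cell type markers, set by symbol, could not be counted, since 0 identifiers matched the RefSeq gene table. The genes, lists and tests were chosen with earlier results of these data known. Exact tests used scipy 1.17.1 in Python 3.11.15.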

Additional observations from a re-analysis of the deposited data

Results flagged for a closer look

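Of 18 sets of values (6 genes in 3 groups), 3 held a rat far from the others of its group by Dixon's criterion at 95%, where chance gives 0.9. In SD rat 352, Slc2a1 was 82.8 CPM, above the other SD rats. In SHAM rat 333, Fbp1 was 612 CPM, below the other SHAM rats, and this library had the fewest counts of those used (14502127). In DMT rat 328, Akr1b1 was 21.8 CPM, above the other DMT rats. The cause was not tested for any of them.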

How the results depend on the processing

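Of 540 values of the 6 genes under alternatives, 504 kept their direction and call, 9 lost a call, 24 gained one and 3 changed sign. These values include fits without a rat of the group not compared, where estimates hardly moved. They also include settings that change only the fold-change threshold and keep the main estimates. The total of 504 therefore overstates how far the results were put to a test. Of the 18 results, 9 kept both under every alternative run, among them Slc2a2 and Fbp1 in DMT vs SD and Slc2a2 in SHAM vs SD. On library totals without factors, which moved the median log2 fold-change of all genes in SHAM vs SD from 0.01 to 0.14, Fbp1 was -0.31 and Akr1b1 0.50 in SHAM vs SD, Fbp1 -0.41 in DMT vs SHAM, and Slc2a1 -0.38 and Slc5a1 0.0166 in DMT vs SD. The exact permutation test on the same scale gave -0.32 for Fbp1 and 0.48 for Akr1b1 in SHAM vs SD, -0.40 for Fbp1 in DMT vs SHAM, and -0.36 for Slc2a1, 0.00833 for Slc5a1 and 0.53 for Txnip in DMT vs SD. Under both tests on this scale, Fbp1 in SHAM vs SD and Slc2a1 in DMT vs SD lost their calls. Akr1b1 in SHAM vs SD and Fbp1 in DMT vs SHAM gained calls under both, and Txnip in DMT vs SD under the exact test only. With the fold-change tested in the model (glmTreat), Fbp1 (-0.44) and Txnip (0.78) in SHAM vs SD and Slc2a1 (-0.45) in DMT vs SD lost their calls at unchanged values, and the calls over all genes numbered 810 (SHAM against SD), 1091 (DMT against SD) and 461 (DMT against SHAM). Without the threshold on fold-change these numbers were 5131, 4682 and 2975, in place of 2681, 2663 and 1684, and Fbp1 (-0.36) in DMT vs SHAM and Akr1b1 (0.37) in SHAM vs SD gained calls. Akr1b1 (0.38) also gained one with at least 10 counts in every library. Fbp1 in DMT vs SHAM gained a call with all 21 libraries (-0.40) and with the shallow libraries summed (-0.39), and Txnip in DMT vs SD with only these groups in the fit (0.45).

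Leaving out each rat in turn gave ranges of log2 fold-change of -0.43 to -0.32 for Fbp1 and 0.21 to 0.39 for Slc5a1 when DMT was compared with SHAM. For SHAM vs SD they were -0.50 to -0.37 for Fbp1, 0.32 to 0.45 for Akr1b1 and -0.45 to -0.26 for Slc5a1. In DMT vs SD they were -0.50 to -0.35 for Slc2a1 and -0.13 to 0.0198 for Slc5a1, which changed sign without DMT rat 328. Akr1b1 in SHAM vs SD gained a call in 7 of these fits, each without a different rat. Apart from the thresholds themselves, which set the change at construction, the cause was not tested. No paired analysis was possible because the labels number each rat once and give no pairs.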
